A study of Sus scrofa with 7 samples.

Results

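Glypicans and syndecans are the cell-surface proteoglycans that carry heparan sulphate. They were taken as a gene family, namely the 6 glypican genes (GPC1 to GPC6) and the 4 syndecan genes (SDC1 to SDC4), matched by symbol in a table of 20653 pig genes. All 10 were found, in 16 transcript rows. The row standing for a gene was chosen by its mean normalized count across the 7 libraries, the highest being kept, and GPC5 and GPC1 were selected on their difference between the groups. RNA was sequenced from myocardium of the anteromidventricular region of male farm pigs, each 14 weeks after a myocardial infarction made in the left circumflex artery. Every pig carried an AAV5 vector (adeno-associated virus, serotype 5), used to bring a gene into heart cells. The vector of the 3 pigs labelled hrLuc encoded luciferase, a light-producing reporter, and that of the 4 pigs labelled S100a1 encoded human S100A1, a small calcium sensor of cardiomyocytes. The sources used here do not give the age of the pigs or the promoter in the vectors. The comparison asks how this family of receptors differed between hearts given S100A1 and hearts given the reporter.

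Glypicans are held to the outer face of the membrane by a glycosylphosphatidylinositol lipid, whereas syndecans span the membrane and have a short cytoplasmic tail that binds scaffold proteins and the cytoskeleton. The heparan sulphate chains of both bind growth factors, chemokines and morphogens, among them fibroblast growth factors (FGFs), vascular endothelial growth factor (VEGF), WNT and hedgehog proteins, and present them to or keep them from their receptors. In the heart syndecans are known for roles in infarct healing and in the response of fibroblasts and cardiomyocytes to load.

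The libraries held 28679324 to 38409552 reads over genes, and the values below are normalized read counts, that is, reads divided by 1 size factor per library. Pig S100A1 itself ranged from 6568 to 9125 in hrLuc and from 4429 to 6804 in S100a1. The vector carried the human sequence, so this value does not check the labels. Defining markers of heart tissue were present in every library (the summed count of 8 cardiomyocyte markers was at least 1703130). All 10 members passed the filter of 10 normalized counts in at least 3 libraries. Fold changes are S100a1 over hrLuc on the log2(value + 0.5) scale, on which scarce genes show a smaller change than their counts do. Tests come from 1 limma fit over 15661 genes with Benjamini-Hochberg adjustment. Because of how GPC5 and GPC1 were picked, their values are given as a description and support nothing. Transcript lengths were not used here, so each gene is compared only with itself across libraries.

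GPC5 was higher and GPC1 lower in the libraries labelled S100a1, and the other 8 members lay between them. GPC5 encodes a glypican best known from the developing nervous system and kidney and as a partner of hedgehog signalling. Its normalized count was 52.7, 54.5 and 46.6 in the hrLuc libraries (replicates 1 to 3 in order, here and below) and 186, 133, 134 and 141 in the S100a1 libraries (replicates 1 to 4). Every S100a1 library lay above every hrLuc library, and S100a1 replicate 1 stood above the other 3 of its group. The group means were 51.3 ± 4.16 (SD, n = 3) for hrLuc and 149 ± 24.9 (SD, n = 4) for S100a1. The log2 fold change was 1.52 ± 0.17 (SE), or 2.86-fold. These values rest on 41 to 170 reads per library.

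GPC1, a broadly expressed glypican that acts as a co-receptor for FGFs and VEGF, stood at 4005, 3910 and 3924 in hrLuc and at 2566, 2407, 2908 and 2982 in S100a1. The groups again did not overlap, here with S100a1 below, and the hrLuc libraries lay within 1.02-fold of each other. The means were 3946 ± 51.3 (SD, n = 3) and 2716 ± 275 (SD, n = 4), a log2 fold change of -0.54 ± 0.08 (SE). GPC1 had 2165 to 4256 reads per library.

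None of the 10 members passed an adjusted p of 0.05 in limma, where 0.0128% of all genes did. GPC5 had an adjusted p of 0.0547 (limma) and GPC1 one of 0.254 (limma), and their ranks by p were 3 and 8 among 15661 genes. At an unadjusted p under 0.05 there were 4 members, GPC5, GPC1, GPC3 and SDC3, against 8.26% of all genes. GPC5 and GPC1 were picked on their difference, so nothing is read from this share. Run on recovered whole reads, edgeR also called 0 members (0.0128% of all genes). DESeq2 called 2, GPC5 as higher (adjusted p = 3.75e-08, with 0.345% of all genes called higher) and GPC1 as lower (adjusted p = 1.78e-04, with 0.224% called lower). In the authors' deposited table the same 2 members had an adjusted p under 0.05, with a log2 fold change of 1.53 for GPC5 (adjusted p = 5.88e-08) and -0.54 for GPC1 (adjusted p = 4.65e-05). Of the genes with an adjusted p there, 0.333% were called higher and 0.328% lower.

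**Figure D1:**
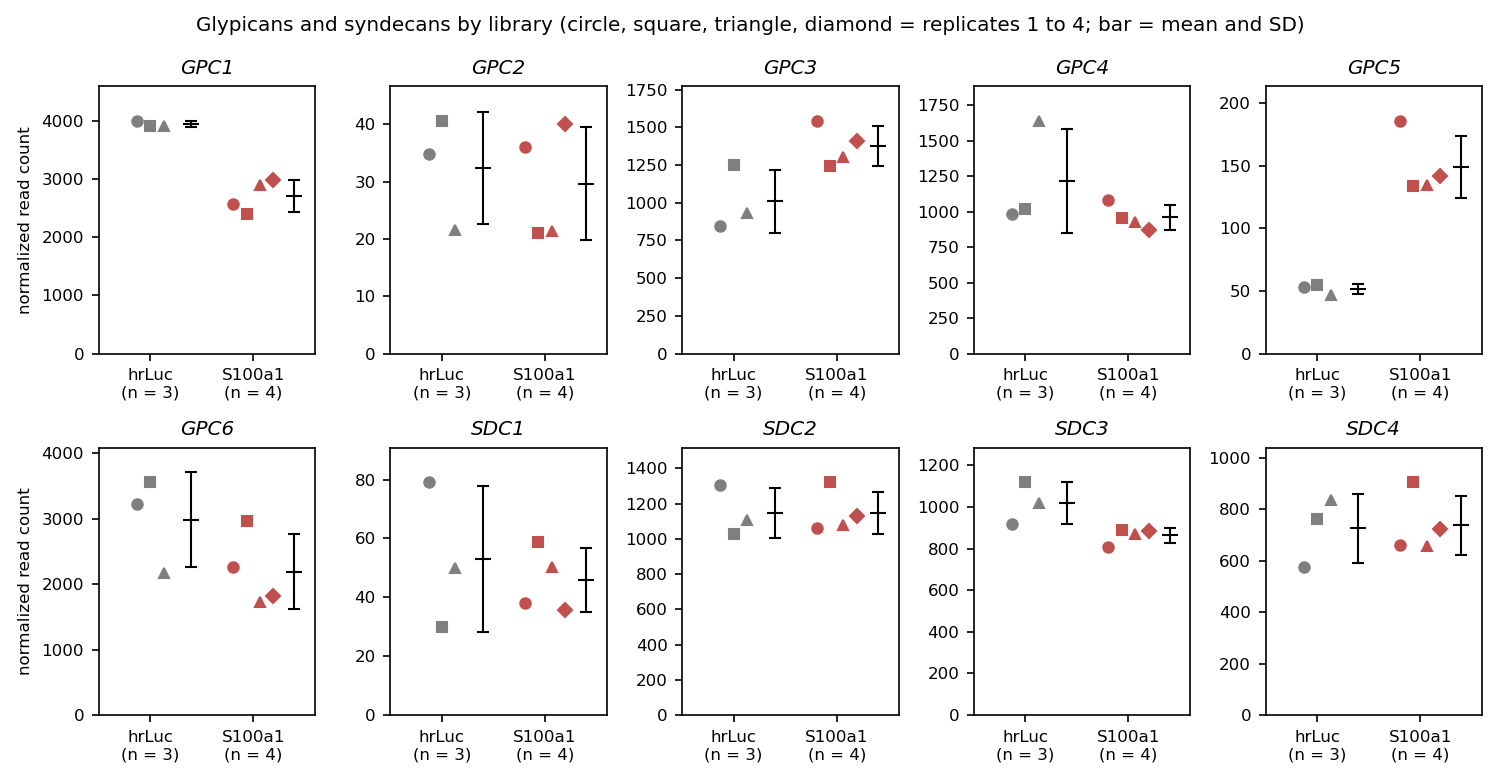
Normalized read count (vertical axes, each from 0) of each glypican and syndecan in the 3 hrLuc (grey) and 4 S100a1 (red) libraries, with marker shape for the replicate and a bar for mean and SD. GPC5 runs from 46.6 to 54.5 in hrLuc and from 133 to 186 in S100a1, GPC1 lies lower in every S100a1 library, and SDC3 is the other member whose groups do not overlap.

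The ratio of GPC5 to GPC1 within a library does not depend on the size factors. Because the 2 genes had opposite signs, the difference in this ratio had to be larger than in either gene. For each 100 normalized counts of GPC1 there were 1.32, 1.39 and 1.19 of GPC5 in hrLuc. The S100a1 libraries had 7.23, 5.54, 4.62 and 4.74. The mean ratio was 1.30 ± 0.10 (SD, n = 3) for hrLuc and 5.53 ± 1.21 (SD, n = 4) for S100a1, and the log2 ratio differed by 2.07. It was chosen for its size, so no test is given.

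The other transcript rows of both genes differed in the same direction between the groups. GPC5 has 3 rows (XM_021065368, XM_021065370 and XM_021065369). The first and second of these hold identical values, so the same reads can stand in both. The last of them, XM_021065369, had 14.1, 9.62 and 9.09 in hrLuc and 37.1, 32.2, 40.4 and 40.1 in S100a1, a log2 fold change of 1.75 from 8 to 49 reads per library. Its count was 17.6% to 30.1% of the count of the kept row, with overlapping groups. The second GPC1 row, XM_005654198, had a count of 88.5% to 93.1% of that of XM_021075944 and a log2 fold change of -0.57. The difference in count between these rows, kept row minus second row, was 278, 364 and 309 in hrLuc and 296, 178, 285 and 312 in S100a1. Unlike the kept row, this difference overlapped between the groups. The sources used here do not say whether a read shared between rows was counted in each.

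GPC5 and GPC6 are neighbours on chromosome 11 of Sscrofa11.1 (GPC5 from 60791000 to 62149911, GPC6 from 62436143 to 63560908), with 286 kb between them and no protein-coding gene in the gap. GPC6, a glypican of mesenchymal and skeletal tissues, had the opposite sign. Its count was 3228, 3557 and 2172 in hrLuc and 2270, 2966, 1721 and 1815 in S100a1. The groups overlapped, with hrLuc replicate 3 below S100a1 replicates 1 and 2, and the log2 fold change of -0.45 ± 0.22 (SE) did not pass (adjusted p = 0.615, limma). For each 100 normalized counts of GPC6 there were 1.63, 1.53 and 2.14 of GPC5 in hrLuc and 8.18, 4.50, 7.80 and 7.79 in S100a1. GPC5 was picked on its difference, so this ratio is a description. A long noncoding RNA gene, LOC106505326, and a pseudogene, LOC110255762, lie within the span of GPC5 and have no row in the table.

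GPC3 and GPC4 are the second neighbouring pair, 115 kb apart on the X chromosome (GPC4 from 109306489 to 109421947, GPC3 from 109536495 to 109973605). Here too the signs were opposite. GPC3, a glypican that binds hedgehog proteins and restrains growth, stood at 849, 1248 and 932 in hrLuc and at 1543, 1245, 1303 and 1410 in S100a1. S100a1 replicate 2 was just below hrLuc replicate 2, and otherwise S100a1 was higher. The log2 fold change was 0.46 ± 0.13 (SE), which did not pass (adjusted p = 0.530, limma).

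GPC4, a glypican that binds FGFs and WNT proteins, was at 984, 1018 and 1638 in hrLuc and at 1080, 953, 928 and 871 in S100a1. The log2 fold change of -0.30 ± 0.17 (SE, adjusted p = 0.644 in limma) rested on hrLuc replicate 3, and without that library it was -0.07. In that library the summed count of 7 mesothelial and epicardial markers was also the highest, at 1652 against 875 to 1217 in the other 6. KRT8, a keratin, accounted for 761 of it. The other tested markers, WT1, TBX18 and UPK3B, were each at their lowest hrLuc value there (289, 585 and 13.6). The part of these cells in the GPC4 value was not tested. The ratio of GPC3 to GPC4 separated the groups, with 86.2, 123 and 56.9 counts of GPC3 for each 100 of GPC4 in hrLuc and 143, 131, 140 and 162 in S100a1. That ratio was formed after the values had been seen and is a description.

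**Figure D2:**
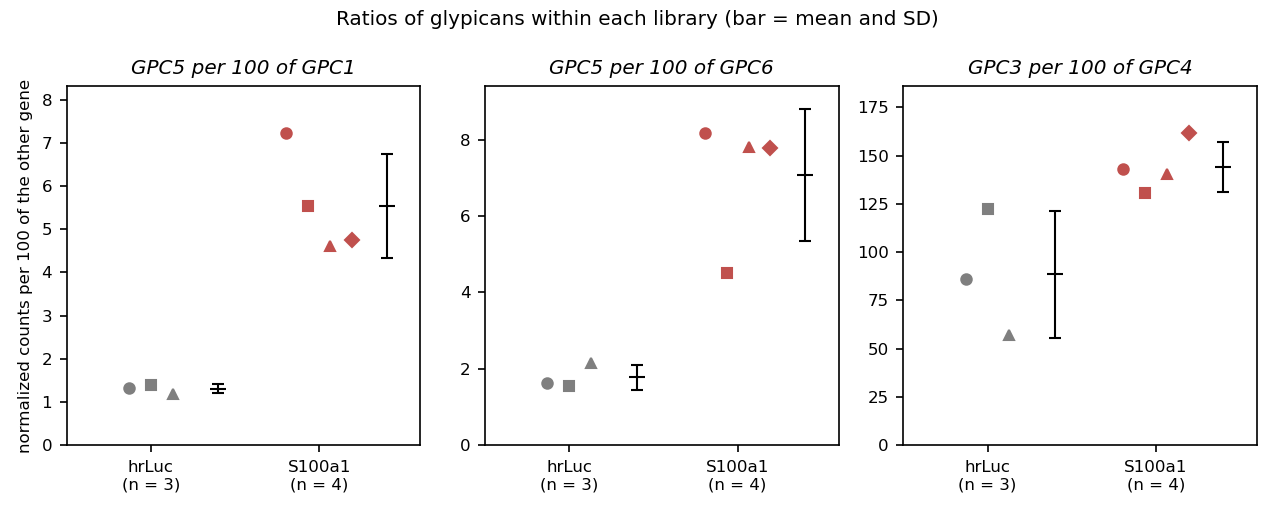
Normalized counts of GPC5 for each 100 of GPC1 (left), of GPC5 for each 100 of GPC6 (middle) and of GPC3 for each 100 of GPC4 (right) in each library (vertical axes from 0; grey hrLuc, red S100a1; bar, mean and SD). In all 3 panels the S100a1 libraries lie above the hrLuc libraries, from 4.62 to 7.23 against 1.19 to 1.39 in the left panel, and in the middle panel S100a1 replicate 2 is the lowest of its group at 4.50. The left and middle panels hold GPC5, which was picked on its difference. The ratio on the right was formed after the values were seen.

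GPC2, a glypican of developing neurons, was scarce in this tissue, with 19 to 46 reads per library. Its count was 34.8, 40.6 and 21.6 in hrLuc and 36.04, 21.1, 21.4 and 40.1 in S100a1. Both groups covered nearly the same range, and the 95% interval of the log2 fold change ran from -0.91 to 0.64. GPC2 overlaps LAMTOR4, a lysosomal scaffold gene with a far higher count (1143 to 1259), so some of its reads may come from that gene.

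Of the syndecans, SDC3 was the 1 member whose groups did not overlap. SDC3 is best known from nerve and muscle progenitors. Its count was 918, 1118 and 1019 in hrLuc and 808, 890, 870 and 884 in S100a1. The highest S100a1 library lay just below the lowest hrLuc library. The log2 fold change was -0.24 ± 0.09 (SE), small and not past the threshold (adjusted p = 0.557, limma). Groups that did not overlap were seen in 1 member on the higher side (GPC5) and 2 on the lower side (GPC1 and SDC3), against 3.96% and 5.31% of all genes. Because the contrast was known when the family was taken up, nothing is read from these shares.

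SDC4 and SDC2 were close to level between the groups. SDC4, the syndecan of focal adhesions, which links integrins to protein kinase C alpha, was at 576, 763 and 837 in hrLuc and at 662, 905, 658 and 725 in S100a1. Its log2 fold change was 0.03, with a 95% interval from -0.32 to 0.38. SDC2, the syndecan of mesenchymal cells, ran from 1030 to 1304 in hrLuc and from 1064 to 1321 in S100a1. Its log2 fold change was 0.00 with a 95% interval from -0.24 to 0.25. A missed threshold does not show that the groups are equal.

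SDC1, known from epithelia and as the plasma cell marker CD138, was scarce, with 28 to 84 reads per library, and it varied most within a group. Its count was 79.0, 29.9 and 49.99 in hrLuc and 38.2, 58.9, 50.2 and 35.8 in S100a1. The highest hrLuc library was 2.64 times the lowest, and the log2 fold change of -0.13 had a 95% interval from -0.90 to 0.64. Without hrLuc replicate 1 it was 0.21. That library also had the highest summed count of 8 B and plasma cell markers, 502 against 195 to 241 in the other 6, and JCHAIN, the joining chain of secreted antibodies, accounted for 335 of it. Of the other tested markers POU2AF1 was also highest in that library (23.5). MZB1 was not (19.8, against 43.7 in S100a1 replicate 3), and TNFRSF17 was at its lowest there (64.0). The part of plasma cells in the SDC1 value was not tested.

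**Figure D3:**
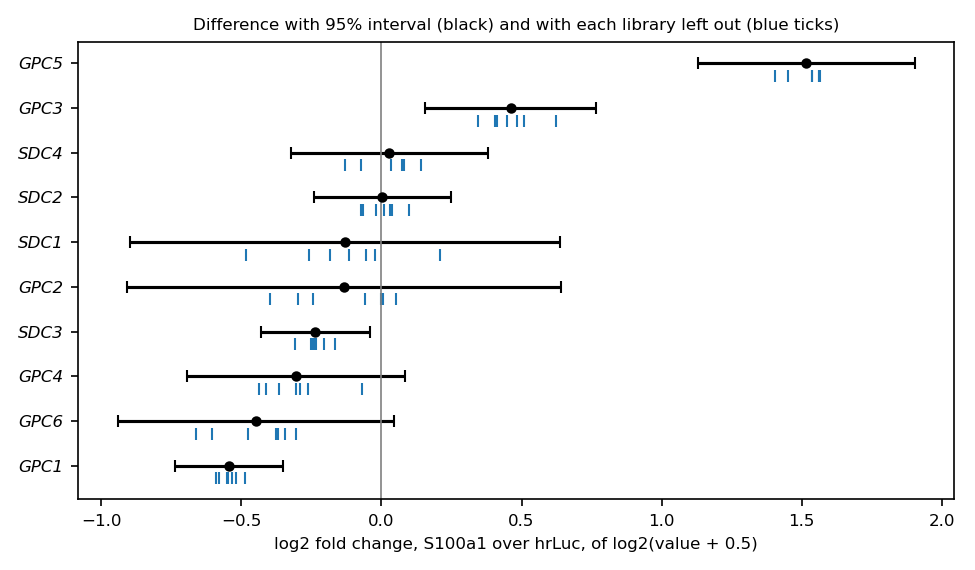
Log2 fold change of S100a1 over hrLuc for each member (horizontal axis), with its 95% interval from limma in black and, as blue ticks below, the values with each of the 7 libraries left out. GPC5 at 1.52 and GPC1 at -0.54 lie at the ends, and their ticks stay on 1 side of 0, as do those of GPC3, GPC4, GPC6 and SDC3. The groups of GPC5, GPC1 and SDC3 do not overlap, so leaving a library out could not change their sign.

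Within-group spread differed between the members. The coefficient of variation (SD over mean) of GPC1 was 1.30% in hrLuc and 10.1% in S100a1. For SDC3 it was 9.81% and 4.37%, for SDC2 12.4% and 10.3%, and for GPC6 24.2% and 25.9%. GPC1 was picked on its difference, so its small spread in hrLuc is not read as precision. Over all 10 members the log2 fold changes had a median of -0.13, with 4 positive and 6 negative, against a median of -0.02 with 43.5% positive over all genes tested.

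The markers of other cell types that could hold these proteoglycans moved unevenly with the groups. In bulk tissue, fewer cells of a type and less RNA per cell cannot be told apart. All 8 fibroblast markers had a negative log2 fold change (median -0.22), and their summed count was 66258 to 85271 in hrLuc and 45056 to 69166 in S100a1, which overlap. None passed in limma, and 3 of the 8 had an unadjusted p under 0.05, against 8.26% of all genes. This list was chosen with earlier results known, so nothing is read from that share. The fibroblast gene PI16 and the collagen-binding proteoglycan gene LUM were lower without overlap (-0.49 and -0.31), the collagen genes COL1A1 and COL1A2 were at -0.44 and -0.37, and DCN and PDGFRA were at -0.07 and -0.10. Of 8 endothelial markers 7 were negative (median -0.06), with PECAM1 at -0.04 and CDH5 at -0.17. The exception was TEK, the angiopoietin receptor gene, at 0.29 with S100a1 above hrLuc without overlap, the 1 marker of the list with an unadjusted p under 0.05. The endothelial sums overlapped (26464 to 30158 in hrLuc, 25554 to 28477 in S100a1). Of 8 smooth muscle and pericyte markers 6 were negative (median -0.30), with sums of 25257 to 32128 in hrLuc and 24961 to 29064 in S100a1.

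Of 8 T and natural killer cell markers 7 were negative (median -0.80), with sums of 480 to 870 in hrLuc and 409 to 521 in S100a1. None passed in limma. An unadjusted p under 0.05 was seen in 4 of the 8, against 8.26% of all genes. Lower without overlap were 3 (CD4, CD5 and GZMH), against 5.31% of all genes. GZMH ran from 5.56 to 7.64 in S100a1, so it passed the filter only through the hrLuc libraries. The lists were also chosen with earlier results known, so nothing is read from these shares. CD5, a T cell surface receptor gene, was at -1.11. It was the 1 marker of these 10 lists that DESeq2 called, where 0.224% of all genes were called lower. In the authors' deposited table CD5 and the cardiomyocyte marker RYR2 (higher, at 0.42 in limma) had an adjusted p under 0.05. There 0.328% of genes were called lower and 0.333% higher. Macrophage markers were negative in 5 of 8 (median -0.17), B and plasma cell markers in 3 of the 4 tested (median -0.40), and mesothelial and epicardial markers in 3 of the 4 tested (median -0.26). The sums of the last 2 lists did not overlap. They were 239 to 502 in hrLuc and 195 to 230 in S100a1 for B and plasma cells. For mesothelium and epicardium they were 1162 to 1652 in hrLuc and 875 to 1042 in S100a1. Among the B and plasma cell markers tested, JCHAIN alone was lower without overlap (99.4 to 335 in hrLuc, 72.5 to 92.8 in S100a1), and MZB1 was at 0.25. No mesothelial or epicardial marker tested separated the groups, and UPK3B was at 0.33. KRT8 ran from 79.1 to 761 in hrLuc and from 62.0 to 158 in S100a1. Cardiomyocyte markers were positive in 5 of 8 (median 0.08), Schwann cell markers in 6 of 8 (median 0.08) and adipocyte markers in 6 of the 7 tested (median 0.08). RYR2 and the adipocyte marker FABP4 (0.30) were higher without overlap, as were 3.96% of all genes. No marker found in the table was at 0 in all libraries. The part of each cell type in the GPC1 and GPC5 values was not tested.

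The enzymes that build and modify the heparan sulphate chains of these proteins did not pass the test in limma in either direction. Of 12 genes of chain assembly 5 were positive and 7 negative (median -0.02). By smallest p these were PXYLP1, the phosphatase that acts on the linkage xylose (0.33 ± 0.12, overlapping a noncoding RNA gene), EXTL1, a glycosyltransferase of the exostosin family (-0.70 ± 0.29), and FAM20B, the xylose kinase (-0.33 ± 0.15, overlapping another protein-coding gene). The chain polymerase genes EXT1 and EXT2 were at 0.10 and -0.01.

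Of 18 tested genes of modification and removal 10 were positive (median 0.02), and the highest was HS3ST1. This gene encodes a 3-O-sulfotransferase that completes the antithrombin-binding site of heparan sulphate. Its count was 21.6, 33.1 and 34.1 in hrLuc and 90.6, 111, 52.7 and 81.2 in S100a1. Every S100a1 library was higher, and the log2 fold change was 1.47 ± 0.29 (SE, adjusted p = 0.394 in limma). DESeq2 called it (adjusted p = 0.00499), as did the authors' deposited table (adjusted p = 0.00589), whereas edgeR did not (adjusted p = 0.409).

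HS3ST5, a second 3-O-sulfotransferase, had a similar difference with far more spread. It ran from 254 to 1285 in hrLuc and from 725 to 3044 in S100a1, so the groups overlapped (1.334 ± 0.57, adjusted p = 0.590 in limma). It overlaps a pseudogene. SULF2, a sulfatase that removes 6-O-sulphate at the cell surface, was lower without overlap (-0.36 ± 0.15, adjusted p = 0.574 in limma). The N-sulfation enzyme NDST1 was at 0.03.

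The genes listed for release of glypicans and syndecans from the cell, or for binding syndecan tails, did not pass the test in limma in either direction. Of 9 tested genes of shedding and release none had an unadjusted p under 0.05. The 3 of smallest p were the hydrolase gene NOTUM (0.59 ± 0.32), GPLD1 (-0.11) and the protease gene MMP2 (-0.19). GPLD1 encodes a phospholipase for the lipid anchor of glypicans and overlaps MRS2 and ALDH5A1. The sheddase genes ADAM10 and ADAM17 were at -0.02 and -0.05. Of 15 cytoplasmic partners 12 were negative (median -0.08), with ARHGDIA at -0.25, GIPC1 at -0.24 and CASK at -0.14. CASK overlaps GPR34 and GPR82. SDCBP, which encodes the syndecan adaptor syntenin, was at -0.05.

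Other proteoglycans that can carry heparan sulphate had a median of -0.18, with 7 of 10 negative. SPOCK2, a testican, was lower without overlap (-0.45 ± 0.14), its relative SPOCK3 was at 0.49 ± 0.16, and TGFBR3, the TGF-beta co-receptor betaglycan, was higher without overlap between the groups (0.22 ± 0.07), and its span holds a pseudogene and a noncoding RNA gene. The basement membrane proteoglycans HSPG2 and AGRN were at -0.19 and -0.22.

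Among 25 heparin-binding ligands and receptors 12 were positive (median -0.00). CXCL12, a chemokine, was at 4045, 4298 and 4334 in hrLuc and at 1807, 2016, 2670 and 3638 in S100a1, lower in every library (-0.79 ± 0.21, adjusted p = 0.514 in limma). VEGFA was higher in every library (0.24 ± 0.06, adjusted p = 0.514 in limma) and was under 0.05 in the authors' deposited table (adjusted p = 0.0380). FGF10, which overlaps a noncoding RNA gene, was also higher in every library (1.59 ± 0.47, adjusted p = 0.534 in limma). Its means were 8.14 in hrLuc and 22.4 in S100a1. With 3.76, 15.0 and 5.68 in hrLuc, it passed the filter only through the S100a1 libraries, so nothing is read from its separation. The receptor FGFR1 was at 0.01. Of 27 tested hedgehog and WNT genes 16 were positive (median 0.03), with WNT11 at 0.33 ± 0.10, GLI2 at 0.29 ± 0.11 and WNT5B at -0.27 ± 0.12. WNT5B overlaps FBXL14.

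Over the 7 lists 116 genes were tested, and 0 passed in limma or edgeR. At an unadjusted p under 0.05 there were 17, or 14.7%, where all genes gave 8.26%. Because the lists were chosen with earlier results of these data known, nothing is read from this share. DESeq2 called HS3ST1 alone, and the authors' deposited table HS3ST1 and VEGFA. SHH, IHH and DHH, the hedgehog ligands, did not reach the filter.

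**Figure D4:**
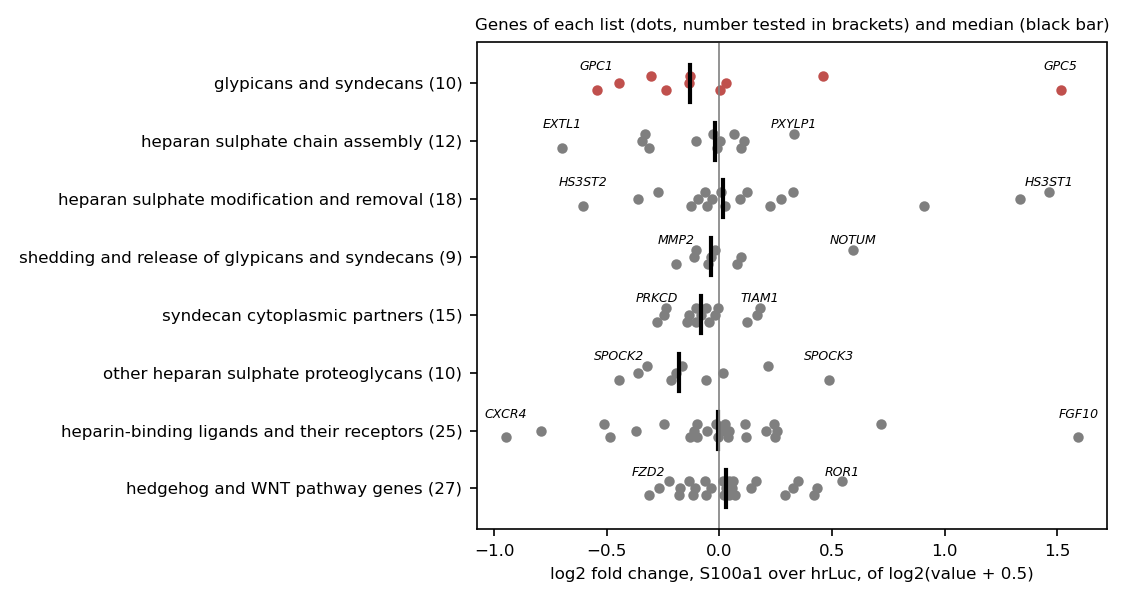
Log2 fold change of S100a1 over hrLuc (horizontal axis) for the 10 members (red) and for the tested genes of the 7 lists (grey), with the number tested in brackets, the median as a black bar and the lowest and highest gene of each list named. The medians lie between -0.18 and 0.03, and GPC5, HS3ST1 and FGF10 lie far to the right. FGF10 passed the filter only through its S100a1 libraries.

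The genes whose profile over the 7 libraries was most like that of a member were found by the root-mean-square difference of log2 profiles, each centred on its own mean, among 14298 genes with a symbol. GPC5 was nearest to GPRL15 (0.15), then ADTRP (0.27) and RRH (0.29). GPRL15, which was past the threshold in limma (adjusted p = 0.0300), had 104 to 109 normalized counts in hrLuc and 236 to 320 in S100a1. GPC1 was nearest to TP53I11 (0.088, overlapping TSPAN18), NAT14 (0.093) and PARP10 (0.096). The measure keeps the difference between the groups, and the 3 genes near GPC5 had log2 fold changes of 1.41, 1.40 and 1.16.

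GPC1 lies on chromosome 15 (139457866 to 139483704) and its span holds LOC102160973, a predicted protein-coding gene, and MIR149. LOC102160973 had 58.9 to 130 normalized counts, with overlapping groups. The next gene, ANKMY1, begins 1.59 kb away and was at 0.36 ± 0.24.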

How the data were processed

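RNA sequencing of 7 pig hearts was used (3 hrLuc, 4 S100a1; the titles name each library as a separate pig). The authors deposited 1 table of 63562 transcript rows. The deposited library columns hold a signal that, from the values themselves, is a read count per transcript scaled by the authors with a size factor for each library. Dividing by the value of a single read (0.824 to 1.14 units) returned whole numbers for 100% of the values, within a tolerance of 0.01. The deposited log2 and fold (ratio) columns compare S100a1 with hrLuc, and the deposited p-value column, headed as adjusted, does not name its method. Per the submitters' processing notes the build was Sscrofa11.1 and the tools included FastQC 0.11.8, DESeq2 1.33.1 and R 4.1.2. No aligner, counter or use of strand is named in the sources used here, so reads of overlapping genes cannot be told apart. Per the labels' protocols, ribosomal RNA was depleted.

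All 63562 rows matched RefSeq genes on Sscrofa11.1, and the row with the highest mean was kept for each of 20653 genes. Genes with at least 10 in at least 3 libraries (15661) were fitted with limma 3.58.1 (R 4.3.3) with a mean-variance trend on log2(value + 0.5), two-sided, 5 residual and 3.84 prior degrees of freedom, Benjamini-Hochberg threshold 0.05. edgeR 4.0.16 and DESeq2 1.42.0 were run on the recovered reads. The members, the 7 pathway lists and the 10 cell type lists were chosen with earlier results of these data known. Genes set to be named in advance were the members, S100A1, the 3 of smallest p in each pathway list and the 3 most like GPC5 and GPC1. Overlapping and neighbouring genes and the markers PECAM1, CDH5, DCN and PDGFRA were also set in advance. Others named (EXT1, EXT2, NDST1, ADAM10, ADAM17, SDCBP, HSPG2, AGRN, FGFR1, SHH, IHH, DHH, KRT8 and JCHAIN) were added after their values were seen. The markers WT1, TBX18, UPK3B, MZB1, TNFRSF17 and POU2AF1 were named in the same way. So were the markers PI16, LUM, COL1A1, COL1A2, TEK, CD4, CD5, GZMH, RYR2 and FABP4. PDGFB and MSLN had no row matched by symbol and were not analysed here.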

Additional observations from a re-analysis of the deposited data

Results flagged for a closer look

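GPC5 in S100a1 replicate 1 stood apart from the other libraries of its group. Its normalized count was 186, against 133 to 141 in the other 3, and the gap to the nearest was 0.847 of the range of the group, above Dixon's limit at the 95% level. Without that library the log2 fold change of GPC5 was 1.41. In the same library the summed smooth muscle and pericyte markers were high at 29064, against 24961 to 25590 in the other 3 (gap 0.847 of the range). Of 21 such sets of 4 values examined 2 stood out, and chance gives about 1 in 20.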

How the results depend on the processing

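Over 19 alternatives the direction of GPC1, GPC3, GPC4, GPC5, GPC6 and SDC3 did not change. The groups of GPC1, GPC5 and SDC3 do not overlap, so leaving a library out could not change their sign. The alternative threshold of 0.10 uses the main fit, so its fold changes are the same. GPC5 ran from 1.41 to 1.75 and its adjusted p from 3.75e-08 (DESeq2) to 0.319 (replicate block), and GPC1 ran from -0.59 to -0.49. GPC5 passed 0.05 with quantile normalization (adjusted p = 0.0393, limma), which gave 1 member past the threshold and 2 genes higher. At a threshold of 0.10 there was 1 member (GPC5) and 2 genes higher. DESeq2 gave 2 members, 54 genes higher and 35 lower, against 1 higher and 1 lower in limma. Median centring gave 0 genes lower. The replicate number as a block gave 0 higher and 0 lower and 0 members. In that fit S100a1 replicate 4 has no partner and adds nothing. Same-numbered libraries correlated at -0.02, -0.07 and 0.08 in their deviations from the group means, so the numbers were not taken as pairs. The causes of these differences were not tested. With each library left out there were 0 to 1 genes higher, 0 to 3 lower and 0 members. The log2 fold changes that changed sign with a library left out ran from -0.40 to 0.052 for GPC2, from -0.48 to 0.21 for SDC1, from -0.071 to 0.099 for SDC2 and from -0.13 to 0.14 for SDC4. GPC4 was at -0.07 without hrLuc replicate 3. Reads were few for GPC2 and SDC1, at most 46 and 84 in a library. GPC5 had as few in hrLuc (41 to 56) with a coefficient of variation of 8.12% there, against 46.6% for SDC1. GPC5 was picked on its difference and this value comes from 3 libraries, so it is not read as precision.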
